A study of Mus musculus with 9 samples.

Results

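The circadian clock and PAR bZIP genes described here are 10 of the 38293 genes in a raw count table of mouse ventricles: Hlf, Dbp, Tef, Nfil3, Per1, Per2, Per3, Nr1d1, Nr1d2 and Arntl, the last also known as Bmal1. They were taken from the table by symbol, and the list was selected on the log2 fold changes between Arid1a cKO and control ventricles, in particular the lower level of Hlf. For these genes that comparison is therefore given as a description, without p-values. Ventricles were collected at postnatal day 7 (P7) from 5 Arid1a f/f control mice, which carry the floxed Arid1a alleles and no Cre, and from 4 aMHC-Cre;Arid1a f/f mice (cKO). Both groups were on a C57B/6J background and pups of both sexes were included. The aMHC promoter drives Cre in cardiomyocytes alone, so the other cells of the ventricle keep Arid1a, which encodes a subunit of SWI/SNF, a remodeller of chromatin. Poly(A) RNA of whole ventricles was sequenced, with 1 library per mouse. The hour at which hearts were collected is not given in the sources used here, which limits every statement on genes that cycle over the day.

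The clock is a feedback loop of transcription factors that runs in nearly every cell. BMAL1 (from Arntl) and CLOCK bind E-boxes and switch on the Per, Cry, Nr1d and Dbp genes. PER and CRY proteins then block BMAL1 and CLOCK, and the nuclear receptors REV-ERBα (Nr1d1) and REV-ERBβ (Nr1d2) repress Arntl through ROR elements. The PAR bZIP factors DBP, TEF and HLF, named for a domain rich in proline and acidic residues, carry the rhythm to output genes by activating them from D-boxes, and NFIL3 represses from the same sites. In the heart the clock of cardiomyocytes is known to time genes of fuel use and of ion channels.

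Total counts lay between 31011055 and 40073801 per library, and all 10 genes passed the filter on low counts that left 15318 genes for testing. Their raw counts ran from 355 (Arntl) to 5048 (Tef), so no level below rests on a handful of reads. Arid1a itself was measured at 128 to 148 CPM (read counts scaled to the size of the library) in controls and 100.3 to 113 CPM in cKO (log2 fold change -0.39, SE 0.06, adjusted p = 0.00132, edgeR). Rps3a3, a copy of a ribosomal protein gene, split the libraries into 2 sets. Its level was 0.345 to 0.522 CPM in the Rps3a3-low set (control replicates 1 and 2 with cKO replicates 1 to 3) and 100.3 to 112 CPM in the Rps3a3-high set (control replicates 3 to 5 with cKO replicate 4). No batch is named in the labels, and several clock genes moved with these sets, so values are also given within them. The 4 cardiomyocyte markers (Myh6, Tnnt2, Actn2, Ryr2) summed to 25035 to 31609 CPM in controls and 23778 to 28783 CPM in cKO. The 4 fibroblast markers (Col1a1, Pdgfra, Dcn, Tcf21) summed to 1553 to 1992 CPM and 2004 to 2499 CPM. These sums did not overlap, but without Col1a1, the most abundant of the 4, they did (728 to 873 CPM in controls, 688 to 977 CPM in cKO). Col1a1 (0.52) and Tcf21 (0.48) passed an adjusted p of 0.05 between the groups, while Pdgfra (0.11) and Dcn (-0.04) did not. Of the 3 atrial markers Myl7 was called higher in cKO, at 29.04 to 65.8 CPM in controls and 83.6 to 117 CPM in cKO (2.29-fold, adjusted p = 0.00493, edgeR). Sln had a negative log2 fold change (-1.25) and Myl4 a small positive one (0.16), and neither passed. In whole ventricle, fewer cells of a type and less RNA per cell cannot be told apart.

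Promoter sequences show what the members share and where they differ in the binding sites of the loop. RefSeq windows of 300 bases on GRCm38.p6, from 250 bases before to 50 bases from the start of transcription on, were found for 9 of the 10 genes, with 12 windows in all. Both strands were searched for an E-box (CACGTG), a D-box (TTATGTAA or TTACGTAA), the half-site of a ROR element (AGGTCA) and a cAMP response element (TGACGTCA). Matches are in capitals in the windows below, each written 5′ to 3′ on the strand of its gene, and no 2 matches overlapped. Hlf is shown as the member that differed most between the groups, Dbp as the one with a positive fold change, and Tef, Per1 and Per3 because they hold an E-box or a D-box.
Hlf, chr11:90390868-90391167, minus strand: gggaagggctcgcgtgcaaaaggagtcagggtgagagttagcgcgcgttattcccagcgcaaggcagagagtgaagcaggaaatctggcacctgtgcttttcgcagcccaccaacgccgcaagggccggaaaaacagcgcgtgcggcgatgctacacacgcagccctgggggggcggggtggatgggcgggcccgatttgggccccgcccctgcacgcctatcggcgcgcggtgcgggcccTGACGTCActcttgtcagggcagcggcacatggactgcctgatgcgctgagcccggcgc
Dbp, chr7:45704997-45705296, plus strand: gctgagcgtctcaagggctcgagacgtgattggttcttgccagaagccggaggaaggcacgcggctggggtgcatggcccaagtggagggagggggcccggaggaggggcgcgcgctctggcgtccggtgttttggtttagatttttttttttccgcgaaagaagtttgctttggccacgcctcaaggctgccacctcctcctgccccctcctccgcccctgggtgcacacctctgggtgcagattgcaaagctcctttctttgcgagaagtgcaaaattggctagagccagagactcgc
Tef, chr15:81802423-81802722, plus strand: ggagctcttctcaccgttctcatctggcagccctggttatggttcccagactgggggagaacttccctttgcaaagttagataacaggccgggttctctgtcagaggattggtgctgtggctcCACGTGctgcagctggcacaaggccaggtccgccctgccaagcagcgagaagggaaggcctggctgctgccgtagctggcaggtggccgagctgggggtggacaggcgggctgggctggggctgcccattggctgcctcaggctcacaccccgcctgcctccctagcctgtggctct
Per1, chr11:69098699-69098998, plus strand: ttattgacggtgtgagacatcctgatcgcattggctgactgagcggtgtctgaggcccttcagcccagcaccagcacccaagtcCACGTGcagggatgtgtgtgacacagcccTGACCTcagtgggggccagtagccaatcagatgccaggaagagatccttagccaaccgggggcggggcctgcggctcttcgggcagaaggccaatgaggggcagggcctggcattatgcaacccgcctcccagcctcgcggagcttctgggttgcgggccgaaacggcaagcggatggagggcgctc
Per3, chr4:151044616-151044915, minus strand: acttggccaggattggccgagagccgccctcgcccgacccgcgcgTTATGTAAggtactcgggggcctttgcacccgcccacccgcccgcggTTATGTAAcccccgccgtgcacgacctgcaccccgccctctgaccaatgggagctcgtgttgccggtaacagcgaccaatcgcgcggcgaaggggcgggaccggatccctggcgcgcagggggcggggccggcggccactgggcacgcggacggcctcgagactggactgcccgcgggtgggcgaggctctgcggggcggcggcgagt

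Hlf held the cAMP response element at position -9 from its start, a motif present in 1.79% of all 32851 windows of this length. Per3 held the D-box at positions -205 and -158 from its start, and 1.06% of all windows held a D-box. An E-box was found in Tef at position -127 from the start shown, and a separate one at position -138 from its other annotated start. Per1 held an E-box at position -166. E-boxes were found in 7.15% of all windows. The half-site AGGTCA, in 16.3% of all windows, was found in Per1 and Nfil3 on the opposite strand, in Nr1d2 at position -77 and in Arntl at position 32 after the second of its starts. These are matches of letters in short windows, and binding was not measured here.

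The order of the genes by level per length depended on the length taken. With counts scaled to library size and to the union of annotated exons (RPKM), in controls Nr1d2 stood at 20.01 ± 1.15 (SD, n = 5), Tef at 15.5 ± 1.98 and Nfil3 at 14.6 ± 0.726. Each of these overlapped with its neighbour in the order over the 5 controls. Nr1d1 followed at 9.095 ± 1.37 RPKM, below every value of Nfil3. Dbp (7.98 ± 1.71), Per3 (7.94 ± 1.39), Per1 (7.89 ± 2.24) and Hlf (7.55 ± 0.685) could not be put in order, since their values overlapped with each other and with Nr1d1. Per2 at 2.89 ± 0.220 RPKM and Arntl at 1.83 ± 0.341 RPKM were the lowest, and neither overlapped with the other or with the genes above. In cKO ventricles Hlf, at 2.72 ± 0.281 RPKM (SD, n = 4), had left the middle of the order for a place beside Per2, at 2.12 ± 0.211 RPKM. With the length of the longest transcript instead, an alternative chosen after the data had been seen, Tef (27.7 ± 3.54 CPM per kilobase) came before Nr1d2 (23.2 ± 1.33) in controls, and Arntl (3.45 ± 0.642) and Per2 (2.90 ± 0.220) changed places and overlapped.

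**Figure D1:**
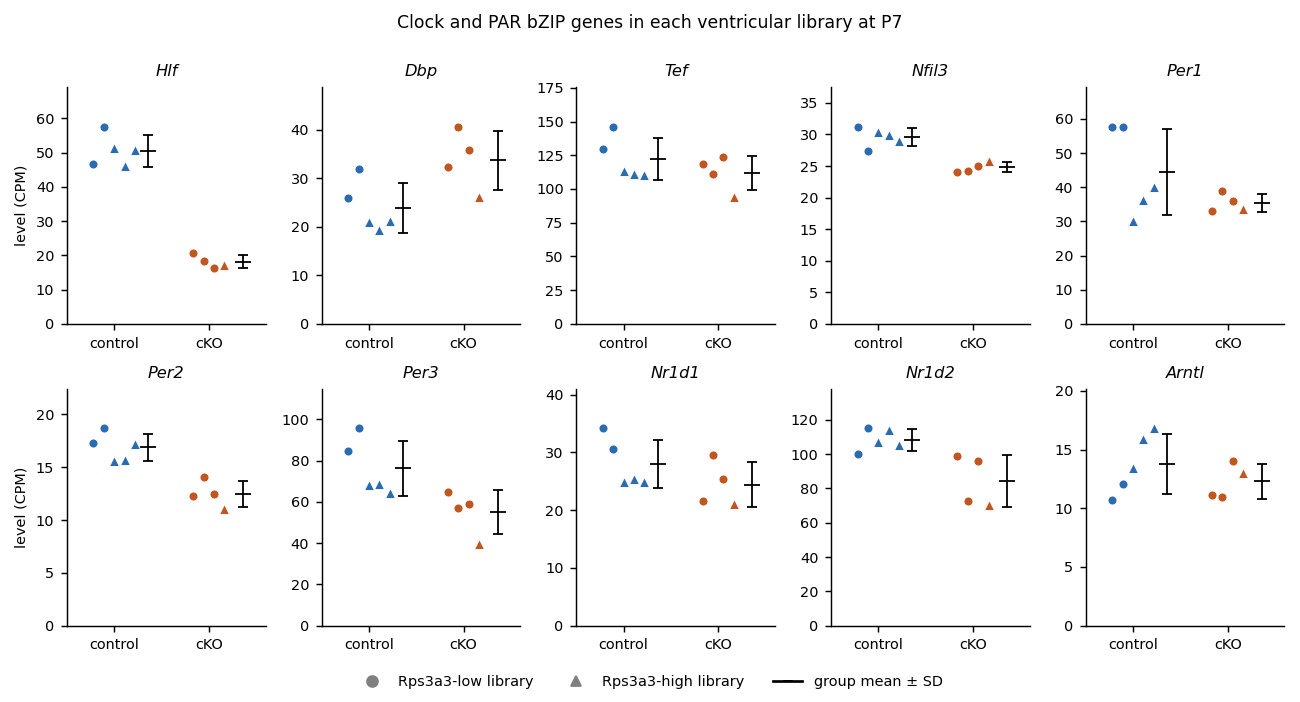
Level of each of the 10 genes in CPM (counts scaled to library size, vertical axis, from 0) in 5 control and 4 cKO libraries at P7, with circles for Rps3a3-low and triangles for Rps3a3-high libraries and black bars for the group mean ± SD. Hlf, Nfil3, Per2 and Nr1d2 show no overlap between the groups, and for Dbp, Tef and Per3 the triangles lie low within their group.

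Hlf, an activator of the PAR bZIP family (ENSMUSG00000003949, GRCm38 chromosome 11, 90336536 to 90390895, minus strand), was the member that differed most between the groups. In order of replicate, the 5 controls held 46.6, 57.6, 51.2, 46.2 and 50.7 CPM of Hlf, and the 4 cKO libraries 20.7, 18.4, 16.4 and 17.2 CPM. The highest cKO library lay far below the lowest control. The mean of 18.2 ± 1.88 CPM (SD, n = 4) in cKO was 2.78-fold lower than the 50.5 ± 4.57 CPM (SD, n = 5) of the controls, or -1.47 on the log2 scale (SE 0.09). Within the Rps3a3-low libraries the log2 ratio of the means was -1.49 and within the Rps3a3-high libraries -1.53, and over 20 alternative fits the log2 fold change stayed between -1.54 and -1.42. Hlf was the only one of the 10 genes to pass both thresholds of the study, an adjusted p under 0.05 and a fold over 1.5, which 6.72% of all tested genes passed and 2.72% passed as lower. The cardiomyocyte marker sum overlapped between the groups, while Col1a1, Tcf21 and Myl7 were higher in every cKO library. The other fibroblast markers (Pdgfra, Dcn) and atrial markers (Sln, Myl4) overlapped between the groups. The part of these cell types in the level of Hlf was not tested.

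Dbp, a PAR bZIP activator and a direct target of BMAL1 and CLOCK (ENSMUSG00000059824, chromosome 7, 45705088 to 45710203), pointed the other way. The controls, again by replicate, held 25.9, 31.9, 21.04, 19.4 and 21.2 CPM and the cKO libraries 32.4, 40.6, 35.8 and 26.1 CPM. The groups overlapped, because control replicate 2 stood above cKO replicate 4 and close to cKO replicate 1. With 23.9 ± 5.10 CPM (SD, n = 5) in controls and 33.7 ± 6.09 CPM (SD, n = 4) in cKO, its log2 fold change of 0.50 (SE 0.16) was the single positive value among the 10 genes. Within the sets the log2 ratio was smaller, 0.33 among Rps3a3-low and 0.35 among Rps3a3-high libraries, as the cKO group held 3 Rps3a3-low libraries of 4 and the control group 2 of 5. Dbp did not pass an adjusted p of 0.05 in edgeR's fit of all libraries but passed both thresholds without control replicate 2 (0.62) and without cKO replicate 4 (0.60). With the trends of each library over GC content and length removed, an alternative chosen after the data had been seen, its value was 0.30. Dbp has a transcript of 61.6% GC, above 98.7% of genes, and libraries differed in how their levels followed GC, with correlations over 11011 genes from -0.48 in control replicate 4 to 0.60 in cKO replicate 2.

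Tef, the third PAR bZIP activator (ENSMUSG00000022389, chromosome 15, 81802421 to 81826863), held 129, 146, 113, 111 and 110.4 CPM in the controls against 118, 111, 124 and 94.2 CPM in the cKO libraries. The groups overlapped widely, with control replicates 3 to 5 inside the range of the cKO libraries. Its log2 fold change was -0.13 (SE 0.10), and the ratio was -0.23 among Rps3a3-low and -0.24 among Rps3a3-high libraries. Nfil3, the repressor that competes for D-boxes (ENSMUSG00000056749, chromosome 13, 52967209 to 52981073), held 31.2, 27.4, 30.5, 29.9 and 29.0 CPM in the controls against 24.1, 24.2, 25.0 and 25.8 CPM in the cKO libraries. Every cKO library lay below every control, by a small margin between control replicate 2 and cKO replicate 4. The log2 fold change of Nfil3 was -0.25 (SE 0.06), and it fell short of an adjusted p of 0.05 without control replicate 3 (-0.24), in the Rps3a3-low libraries alone (-0.26) and with the replicate number as a block (-0.26).

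Because the 3 PAR bZIP activators bind the same sites, their levels were also set against each other per length. Hlf made up 21.8%, 22.8%, 26.4%, 25.1% and 26.4% of their summed RPKM in the 5 controls, against 10.7%, 9.06%, 8.16% and 11.0% in the 4 cKO libraries. Dbp made up 23.6% to 28.2% in controls and 37.4% to 44.6% in cKO. Hlf and Dbp thus held about equal shares in controls, at 24.5% ± 2.14 and 25.5% ± 1.97 (SD, n = 5), while in cKO Dbp stood at 39.8% ± 3.37 and Hlf at 9.74% ± 1.36 (SD, n = 4). Tef made up 48.9% to 51.3% in controls and 46.4% to 52.2% in cKO. The summed level was 31.04 ± 4.16 RPKM in controls, from 27.5 to 37.9, and 28.2 ± 3.34 RPKM in cKO, from 23.3 to 30.4, so the sums overlapped. Relative to Nfil3 the sum was 2.14 ± 0.380 in controls and 2.31 ± 0.327 in cKO, again with overlap. With the length of the longest transcript, Hlf made up 18.2% ± 1.70 and Dbp 26.0% ± 1.88 in controls, so that their equal shares held for the union of exons alone, and 6.93% ± 0.989 and 38.9% ± 3.31 in cKO. The summed levels overlapped with either length. These shares rest on RNA levels of the same contrast that chose the genes, and protein was not measured.

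**Figure D2:**
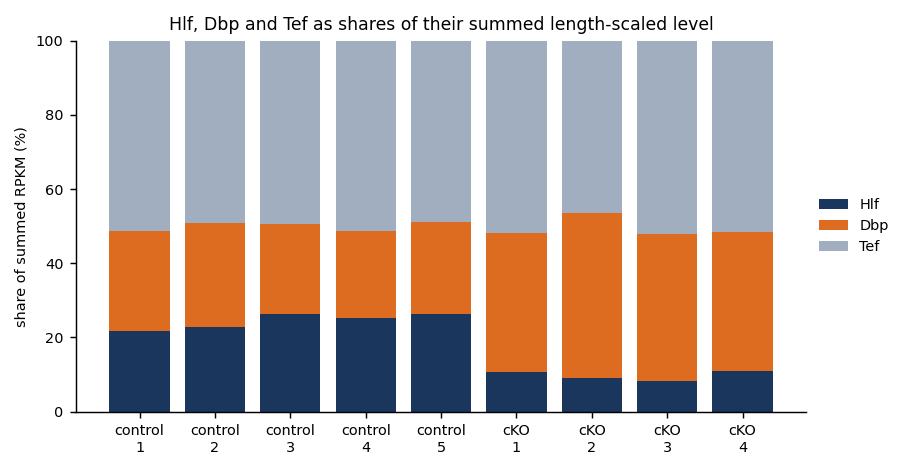
Shares of Hlf, Dbp and Tef in their summed length-scaled level (RPKM), in percent, for each control and cKO library (bars from 0 to 100%). The share of Hlf lies between 21.8% and 26.4% in controls and between 8.16% and 11.0% in cKO, and that of Tef stays near 50% in both groups.

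Arntl, the positive limb of the loop (ENSMUSG00000055116, chromosome 7, 113207465 to 113314126), was among the 2 least abundant of the 10 genes per length, with Per2. The controls held 10.7, 12.1, 13.4, 15.9 and 16.8 CPM and the cKO libraries 11.2, 11.0, 14.0 and 13.0 CPM, so all cKO libraries lay inside the range of the controls. Its log2 fold change was -0.16 (SE 0.14), with a ratio of 0.08 among Rps3a3-low and -0.24 among Rps3a3-high libraries. The direction thus turned between the sets.

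The 3 Period genes, which form the negative limb with the cryptochromes, all had negative values. Per2 (ENSMUSG00000055866, chromosome 1, 91415982 to 91459324) had 17.3, 18.7, 15.6, 15.7 and 17.2 CPM in the controls against 12.2, 14.0, 12.4 and 11.0 CPM in the cKO libraries, with every cKO library below every control. The log2 fold change of Per2 was -0.44 (SE 0.10), or 1.36-fold lower, with ratios of -0.48 and -0.55 within the Rps3a3-low and Rps3a3-high libraries, and it fell short of an adjusted p of 0.05 in the Rps3a3-low libraries alone. Per3 (ENSMUSG00000028957, chromosome 4, 151003652 to 151044665) had 84.6, 95.5, 68.4, 68.5 and 64.2 CPM in the controls against 64.5, 56.9, 58.7 and 39.7 CPM in the cKO libraries. The groups touched at 1 point only, where cKO replicate 1 stood just above control replicate 5. For Per3 the log2 fold change was -0.47 (SE 0.15), and with the library set as a term of the fit it was -0.65 and passed both thresholds. Per1 (ENSMUSG00000020893, chromosome 11, 69095217 to 69109960), which also answers quickly to hormones and activity, had 57.7, 57.7, 30.2, 36.3 and 40.1 CPM in the controls against 33.2, 38.9, 35.9 and 33.6 CPM in the cKO libraries. Control replicates 1 and 2 stood apart above all others, and the remaining controls overlapped with the cKO libraries. Its log2 fold change of -0.33 (SE 0.18) came to -0.68 within the Rps3a3-low libraries, where Per1 passed both thresholds, and to -0.08 within the Rps3a3-high libraries.

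The REV-ERB receptors, which repress Arntl, differed from each other in how far the groups were apart. Nr1d1 (ENSMUSG00000020889, chromosome 11, 98767932 to 98775333) had 34.1, 30.7, 24.9, 25.3 and 24.9 CPM in the controls against 21.6, 29.5, 25.4 and 21.1 CPM in the cKO libraries. Its groups overlapped, and the log2 fold change was -0.20 (SE 0.13), with ratios of -0.35 among Rps3a3-low and -0.25 among Rps3a3-high libraries. Nr1d2 (ENSMUSG00000021775, chromosome 14, 18204054 to 18239127) had 100.04, 115, 107, 114 and 105 CPM in the controls against 98.7, 72.5, 96.0 and 70.3 CPM in the cKO libraries. All cKO libraries lay below the controls, but cKO replicates 1 and 3 only just below control replicate 1. The log2 fold change of Nr1d2 was -0.36 (SE 0.10), and it lost an adjusted p under 0.05 in 9 of 20 alternative fits, among them those without control replicates 2, 3, 4 or 5 and without cKO replicates 2 or 4, where it ranged from -0.38 to -0.28.

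Across the 10 genes, 9 log2 fold changes were negative and 1 was positive, with a median of -0.29 beside 0.01 over all 15318 tested genes. An adjusted p under 0.05 was reached by 4 of them (Hlf, Nfil3, Per2 and Nr1d2), all lower in cKO, where 16.3% of all genes reached it, 8.03% as lower and 8.25% as higher. The groups did not overlap for the same 4 genes, all with cKO below control, against 16.8% of all genes without overlap and 8.59% in this direction. DESeq2's Wald test put 6 past 0.05, adding Dbp and Per3, against 18.9% of all genes. With the library set as a term, 9 of the 10 passed, all but Arntl, with Dbp higher and 8 lower, and 19.9% of all genes passed. Of the single libraries, leaving out control replicate 3 left 2 genes past 0.05, Hlf and Per2, against 12.5% of all genes. Since the list was chosen with this contrast known, its counts are no evidence about the clock as a whole.

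**Figure D3:**
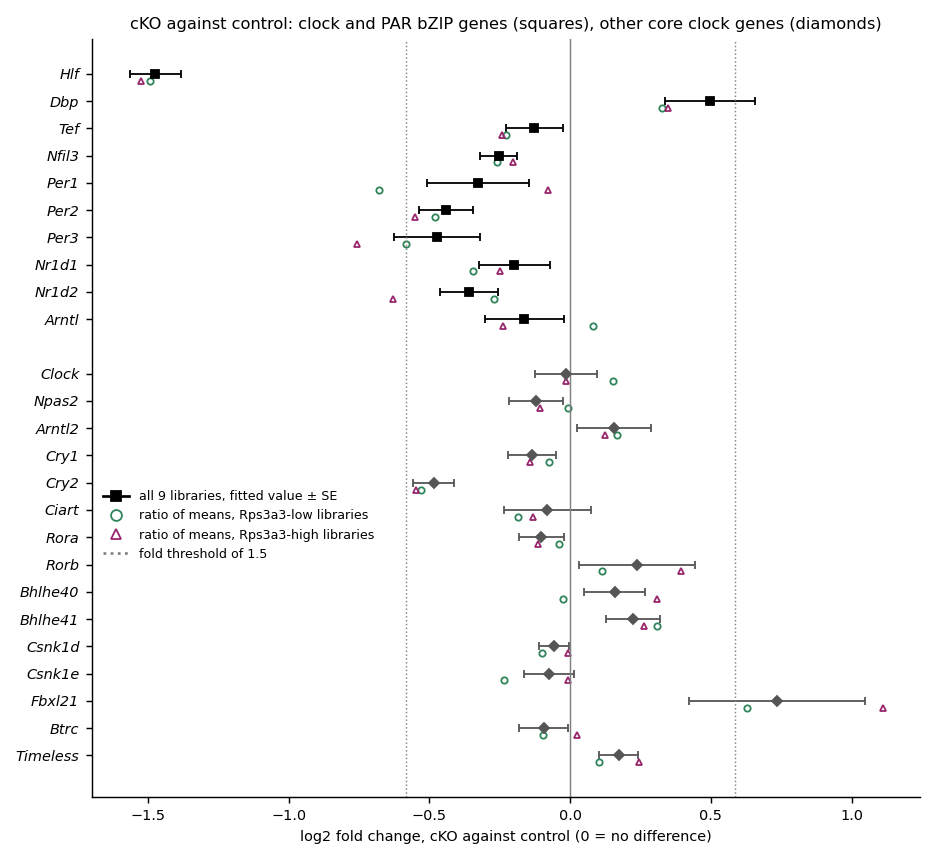
Log2 fold change of cKO against control (horizontal axis, 0 for no difference) for the 10 clock and PAR bZIP genes (squares) and 15 of the 17 other core clock genes (diamonds), with bars for ± 1 SE, open circles and triangles for ratios of means within the Rps3a3-low and Rps3a3-high libraries, and dotted lines at a fold of 1.5. Hlf lies alone at -1.47, Dbp is the one square right of 0, and Cry2 is the diamond farthest to the left.

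The other genes of the core clock were a list of 17, all of which were tested in the same fit. Of these, 3 passed an adjusted p of 0.05 and all 3 were lower in cKO, with a list median of -0.07. Of all tested genes 16.3% passed, 8.03% as lower, so the count of 3 was near the share of all genes. Cry2, a cryptochrome that works with PER proteins, was lower in cKO, with a log2 difference of -0.49 (SE 0.07, adjusted p = 0.000852, edgeR), with means of 44.1 ± 3.04 CPM in the 5 controls and 31.5 ± 2.02 CPM in the 4 cKO libraries (SD). Its controls lay between 39.9 and 47.7 CPM and its cKO libraries between 28.9 and 33.8 CPM, without overlap, and it passed in all 20 alternative fits. None of the 17 also passed the fold threshold in edgeR or in DESeq2, and 6 had an unadjusted p under 0.05 by either tool.

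The genes of the positive limb and Cry1 did not pass. Clock, the partner of Arntl, was at 59.9 to 82.9 CPM in controls and 60.3 to 76.6 CPM in cKO (log2 fold change -0.01, SE 0.11, adjusted p = 0.944, edgeR), a value whose sign turned under 8 alternatives. Npas2, which can stand in for Clock, gave -0.12 (SE 0.10, adjusted p = 0.433, edgeR) and Cry1 gave -0.13 (SE 0.08, adjusted p = 0.317, edgeR). Both overlapped between the groups.

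Output genes of the clock were examined as a list of 11. Kcnip2, which encodes a subunit of the channel that carries the transient outward potassium current, was called higher in cKO. It was measured at 119 to 191 CPM in controls and 355 to 573 CPM in cKO (log2 fold change 1.79, SE 0.19, adjusted p = 0.000205, edgeR), and 4.01% of all genes were called higher. Tsc22d3, a leucine zipper gene that glucocorticoids also induce, fell by 0.33 (SE 0.08, adjusted p = 0.0116, edgeR), and in the Rps3a3-low libraries alone its adjusted p was 0.134 (edgeR). Pik3r1, a regulatory subunit of PI3 kinase, fell by 0.32 (SE 0.08, adjusted p = 0.0211, edgeR), and its adjusted p was over 0.05 in 5 of 20 alternative fits: without cKO replicates 2, 3 or 4, with the replicate block and in the Rps3a3-low libraries alone. The other 8, among them Usp2, Wee1 and Klf15, did not pass, and the list median was -0.03. An adjusted p under 0.05 was reached by 16.3% of all genes, by 8.03% as lower.

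Genes known to depend on PAR bZIP factors in other organs (Pdxk, Alas1, Por, Nr1i3, Ppara) did not pass in these ventricles. Nr1i3 was too low to be tested in edgeR, and of the other 4 none reached an adjusted p of 0.05 in edgeR or DESeq2, with 1 at an unadjusted p under 0.05 by either tool. That was Por, the electron donor of cytochrome P450 enzymes, at 0.29 (SE 0.12, adjusted p = 0.137, edgeR). Among 6 glucocorticoid-induced genes, which share stimuli with Per1, Fkbp5 rose from 14.3 ± 1.96 to 20.7 ± 4.03 CPM (log2 fold change 0.54, SE 0.14, adjusted p = 0.0207, edgeR) but stayed under the fold threshold. Its adjusted p was over 0.05 without cKO replicate 2 (0.48) or cKO replicate 4 (0.44), with the replicate block (0.54) and in the Rps3a3-low libraries alone (0.54). Of the 6 genes 1 passed 0.05 in edgeR and 2 in DESeq2, beside 16.3% and 18.9% of all genes. Positive log2 fold changes were found for 5 of the 6, with a list median of 0.01. The negative one was that of Sgk1 (-0.28, SE 0.09, adjusted p = 0.0543, edgeR). Of 7 immediate-early genes Egr1 was called higher, at 20.8 to 40.9 CPM in controls and 48.9 to 98.0 CPM in cKO (1.17, SE 0.27, adjusted p = 0.0184, edgeR). The call of Egr1 was lost in the Rps3a3-low libraries alone (adjusted p = 0.160) and with library set and sex as terms (adjusted p = 0.0668, edgeR). Handling of the animals before collection is not given in the sources used here, and its part in these levels was not tested.

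The library sets were compared with each other at fixed genotype and sex, a measure that the choice of genes did not use. In this test 3 of the 10 genes passed an adjusted p of 0.05 and all 3 were lower in the Rps3a3-high libraries, where 3.84% of all genes passed, 2.57% as lower and 1.27% as higher. Per3 differed by -0.49 (SE 0.08, adjusted p = 0.00696, edgeR), Dbp by -0.50 (SE 0.09, adjusted p = 0.0184, edgeR) and Tef by -0.32 (SE 0.06, adjusted p = 0.0135, edgeR). For Per3 the Rps3a3-low controls stood at 84.6 and 95.5 CPM and the Rps3a3-high controls at 64.2 to 68.5 CPM, and the 3 Rps3a3-low cKO libraries at 56.9 to 64.5 CPM and the single Rps3a3-high one at 39.7 CPM. Per1 (-0.47, SE 0.13, adjusted p = 0.0765, edgeR) and Nr1d1 (-0.33, SE 0.10, adjusted p = 0.0872, edgeR) had values of the same sign that did not pass. Arntl (0.31, SE 0.13, adjusted p = 0.189, edgeR) and Clock (0.29, SE 0.09, adjusted p = 0.0872, edgeR) had values of the opposite sign that did not pass either. Hlf, at -0.09 (SE 0.10, adjusted p = 0.594, edgeR), had a set difference much smaller than its difference between the groups.

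The set test leaned on single libraries, with 1 cKO library in the Rps3a3-high set. Without control replicate 2 none of the 10 genes passed, without cKO replicate 4 only Per1 did, and without cKO replicate 1 there were 5 (Dbp, Tef, Per1, Per3 and Nr1d1). The shares of all genes that passed in these 3 fits were 0.414%, 0.879% and 9.89%, in the same order. With the GC and length trends removed, Dbp came to -0.22 (adjusted p = 0.203, edgeR) and no longer passed, while Tef and Per3 still did. Of the 17 other core clock genes 0 passed between the sets in edgeR, with 4 at an unadjusted p under 0.05. Of the 11 output genes 4 passed, all lower in the Rps3a3-high libraries: Kcnip2 (-0.63), Dgat2 (-0.87), Klf15 (-0.77) and Tspan4 (-0.44), of which the last 3 are named after their values were seen. No other tool was run for the set test. Markers of other kinds moved with the sets. All 4 macrophage markers were lower in the Rps3a3-high libraries at an unadjusted p under 0.05, and Adgre1 (-0.74) and Fcgr1 (-1.54) passed after adjustment. Of the 7 immediate-early genes 3 passed, also lower, namely Ier2 (-0.58), Nr4a1 (-1.55) and Dusp1 (-0.45). Their part in the set differences of the clock genes was not tested. Whether the sets differ in collection time, litter or preparation was not tested.

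**Figure D4:**
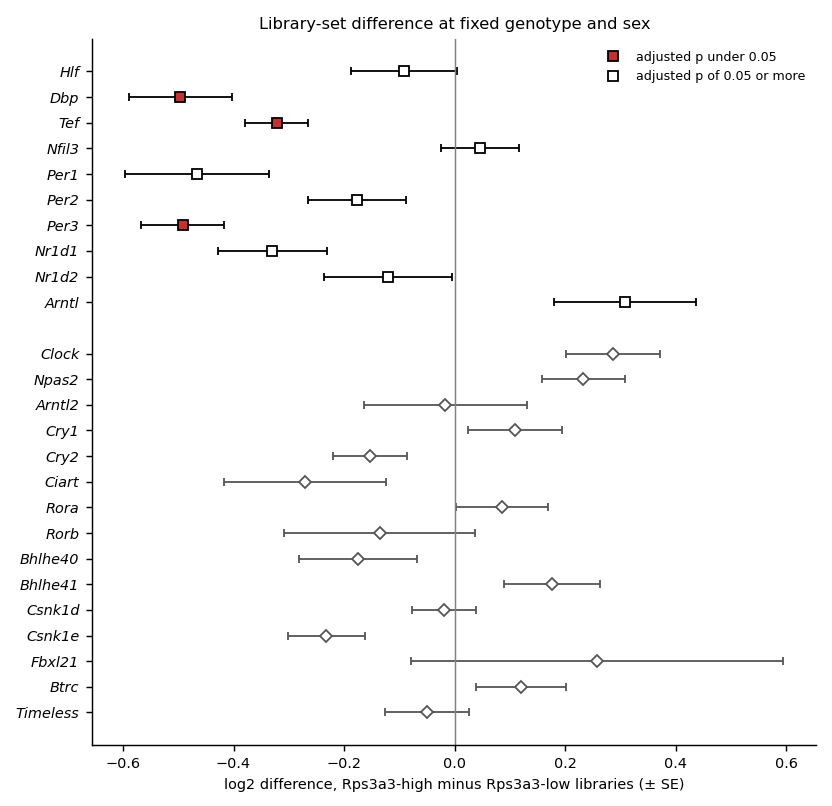
Log2 difference between Rps3a3-high and Rps3a3-low libraries at fixed genotype and sex (horizontal axis, ± 1 SE) for the 10 clock and PAR bZIP genes (squares) and 15 of the 17 other core clock genes (diamonds), filled where the adjusted p was under 0.05. Dbp, Tef and Per3 are filled and lie between -0.50 and -0.32, and Arntl and Clock lie on the other side of 0 without passing.

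No difference between the sexes was detectable in these genes. Males and females were told apart by Xist, and at fixed genotype and library set the female minus male difference of the 10 genes lay between -0.04 and 0.08 on the log2 scale. None had an adjusted p under 0.05 (the smallest was 0.9998, edgeR) or an unadjusted p under 0.05, and 0.0588% of all genes passed. No other tool was run for this test.

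The genes also differed in how much they varied between animals of the same group. Among 11064 genes with a mean of at least 5 CPM, the SD of log2 CPM within groups had a median of 0.14. Per1 with 0.32 lay above 94.1% of these genes, Dbp with 0.28 above 90.9% and Per3 with 0.27 above 89.9%. Hlf with 0.14 and Per2 with 0.12 lay near the middle. Nfil3 with 0.06 was among the least variable, above 5.84% of genes, so its small difference between the groups stood against a narrow spread. These spreads hold the difference between the library sets as well.

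In a running clock, Arntl and the genes it drives are known to peak at opposite times of day. Over the 9 libraries with group means removed, Arntl had negative correlations with 7 of the other 9 genes, and none passed after adjustment over the 9 relations. The values nearest to passing were for Nr1d1, with a Pearson r of -0.64 (exact permutation within groups p = 0.075, adjusted p = 0.356) and a Spearman rho of -0.52 (exact permutation p = 0.131, adjusted p = 0.257). Per3 gave an r of -0.62 (exact permutation p = 0.0986, adjusted p = 0.356) and a rho of -0.67 (exact permutation p = 0.0847, adjusted p = 0.257). For Dbp the r was -0.60 (exact permutation p = 0.119, adjusted p = 0.356) and the rho -0.68 (exact permutation p = 0.075, adjusted p = 0.257). Without control replicates 4 and 5, the libraries farthest from the median in the level of Arntl, r was -0.52, -0.45 and -0.39 in the same order. Without control replicates 1 and 5, the farthest once group means were removed, an alternative added after the data had been seen, r was -0.40, -0.55 and -0.63. In that alternative Hlf moved most among the genes with negative values, from -0.37 to -0.91 (exact permutation, adjusted p = 0.25), so the relations depended on single libraries. With the means of the library sets removed too, r was -0.20 for Nr1d1, 0.20 for Per3 and 0.08 for Dbp. The sets hold 5 and 4 libraries, too few for a correlation within each. Of the 9 relations 0 had an unadjusted p under 0.05 by r or by rho.

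**Figure D5:**
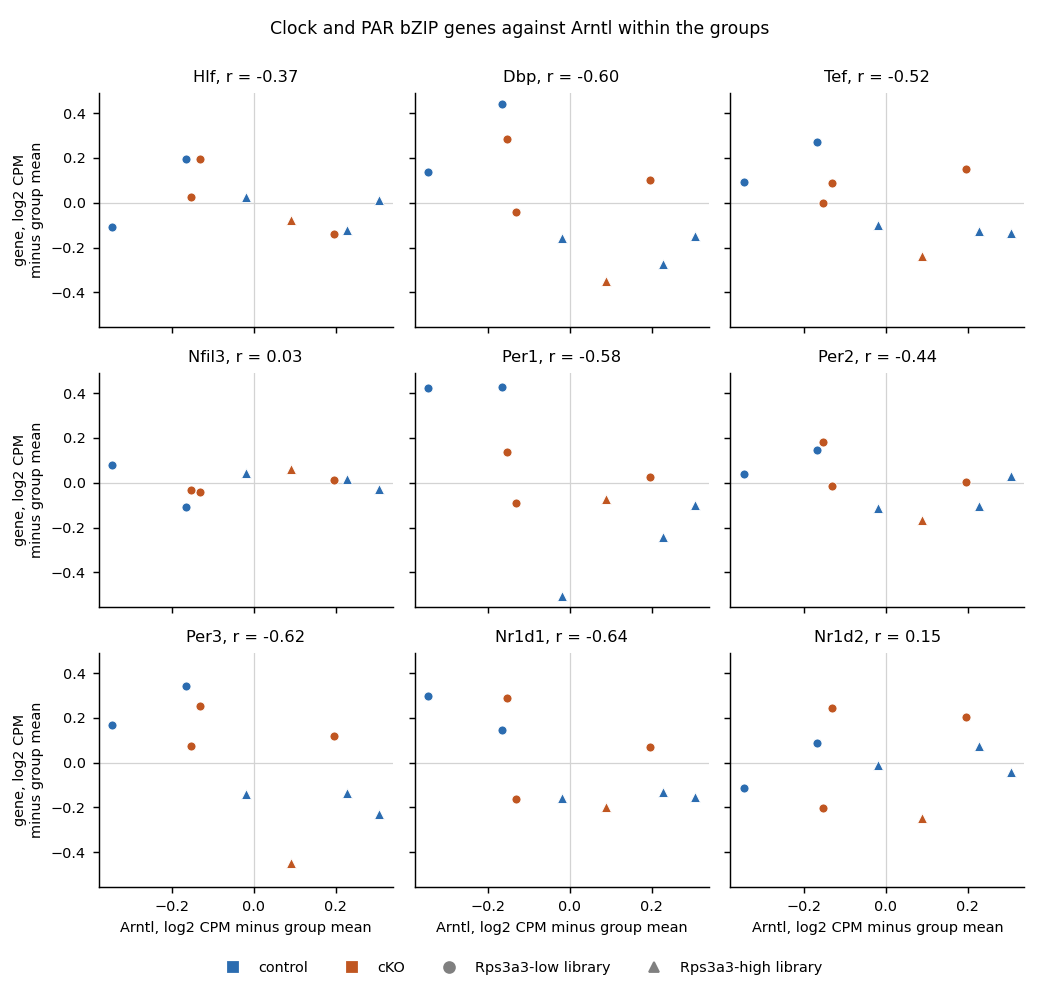
Log2 CPM of 9 genes (vertical axes) against that of Arntl (horizontal axis), each minus its group mean, in 5 control (blue) and 4 cKO (orange) libraries, with circles for Rps3a3-low and triangles for Rps3a3-high libraries. Most circles lie left of 0 and most triangles right of it, so the libraries at the left and right ends, control replicates 1, 4 and 5, come from different sets. The most negative r is -0.64, for Nr1d1.

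Genes whose pattern over the libraries was most like that of a member were listed by Pearson r of log2 CPM with group means removed, over the 9 libraries, as a description. The 5 most like Hlf were Kif1bp, Sfxn4, Gch1, Bbs9 and Rgmb, with r from 0.92 to 0.88. Gch1, which makes the cofactor tetrahydrobiopterin, was itself lower in cKO (log2 fold change -0.61, SE 0.14, adjusted p = 0.0122, edgeR). The 5 most like Dbp were Tcirg1, Zfp467, Anks1, Rxrb and Lims2, with r from 0.995 to 0.983. These have transcripts of high GC content, above 90.5% to 98.6% of genes, as Dbp has. Anks1 fell by 0.56 in cKO (SE 0.13, adjusted p = 0.0143, edgeR), against the direction of Dbp. Among the 5 most like Arntl were Tspan5, Esrrg, Bmpr2 and Lrp6, with r from 0.97 to 0.96, and none of these 4 passed between the groups. Their GC content lay above 8.78% to 46.8% of genes, and all of these patterns share the libraries, the library sets and the GC trends.

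Some of the genes share sequence with a neighbour, and the strand setting of the counting is not given in the sources used here. Nr1d1 overlaps Thra, a thyroid hormone receptor gene on the opposite strand, over 1075 bases, of which 263 are exon in both. Thra was lower in cKO (log2 fold change -0.43, SE 0.08, adjusted p = 0.00234, edgeR), at 154 to 186 CPM in controls and 114 to 139 CPM in cKO, so the values of Nr1d1 are uncertain where the exons meet. Dbp overlaps Sphk2 on the opposite strand over 737 bases, 539 of them exon in both, and Sphk2 gave 0.19 (SE 0.16, adjusted p = 0.477, edgeR). Per3 lies inside the span of Camta1 on the same strand with 0 shared exon bases, and Camta1 gave -0.03 (SE 0.06, adjusted p = 0.779, edgeR). Tef overlaps the antisense gene Gm17597, which held at most 10 counts in any library, and Arntl shares 33 exon bases with the antisense gene Gm45355.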

How the data were processed

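The authors deposited raw read counts per gene, with no normalization, in a single table of 9 libraries. Libraries were made with a stranded mRNA kit and sequenced as single-end reads, which were mapped to mm10, and the submitters' processing notes name STAR 2.4.2a and HTSeq 0.6.1. The annotation used for counting, and its strand setting, are not given in the sources used here. The study's methods give a smaller number of controls than the labels, while its figure legend gives 5, as the labels do. All 5 labelled controls were used. Symbols came from GENCODE M21 on GRCm38, which held 36345 of the 38293 identifiers (99.82% of counts). Without a stated strand setting, overlapping genes on opposite strands could share reads.

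Testing used edgeR 4.0.16 (R 4.3.3) and its quasi-likelihood F statistic, after filterByExpr with a minimum count of 10, TMM scaling and a robust fit with genotype alone. Tests were two-sided, with Benjamini-Hochberg adjustment over all 15318 genes tested. Called means an adjusted p under 0.05 and a fold over 1.5, the thresholds of the study, which used DESeq2. SEs were taken from the log2 fold change and its F statistic. CPM are TMM-scaled, RPKM use the union of annotated exons, and values on the log2 scale have a prior count of 2. Library sets were split at 10 CPM of Rps3a3 and sexes at 100 CPM of Xist, and each was tested as a term beside genotype and the other. Relations with Arntl were tested by exact permutation within groups (2880 pairings). GC content and length are those of the longest annotated transcript of a gene. Alternatives were DESeq2 1.42.0, RLE and upper-quartile scaling, other filters, the replicate number as a block, library set or sex as terms, the Rps3a3-low libraries alone and each library left out. The fits with library set and sex together and with GC and length trends removed, and levels by the longest transcript, were added after the data had been seen.

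The 10 genes and the companion lists were chosen with earlier results of these data known. Genes were named if they were among the 10, were Clock, Npas2, Cry1 or Cry2, passed an adjusted p of 0.05 within a companion list, overlapped one of the 10, or were among the 5 nearest in pattern to Hlf, Dbp or Arntl with a mean of at least 5 CPM. Other names were chosen after their values were seen. A few genes that this rule names are counted but not reported singly here. Libraries of a group differed by more than sampling noise (chi-square per degree of freedom 9.77 to 50.7), so each counted as 1 replicate. The fitting code was tested on simulated counts. Markers of endothelium (1190 to 1323 CPM summed over 4 genes), mural cells (1545 to 1933), macrophages (37.9 to 72.1), erythroid cells (384 to 939), atrium (60.5 to 137 in controls, 126 to 190 in cKO), skeletal muscle (0.912 to 1.62, Myod1 at 0) and adipocytes (0 to 0.869) were listed as checks on the tissue.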

Additional observations from a re-analysis of the deposited data

How the results depend on the processing

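The log2 fold change of Hlf kept its sign and its call in all 20 alternative fits. The number of the 10 genes called, 1 in the fit of all libraries, was 2 with the library set as a term or with library set and sex as terms (Hlf and Per3), 2 in the Rps3a3-low libraries alone (Hlf and Per1) and 4 with no fold threshold. Of all genes 6.72% were called in the fit of all libraries, and 7.61%, 7.49%, 3.97% and 16.3% in these alternatives, in the same order. Leaving out 1 library gave 1 to 2, with Dbp added without control replicate 2 or cKO replicate 4. In the Rps3a3-low libraries alone, a fit with fewer samples, the count past 0.05 was 1 for the other core clock genes and 1 for the output genes, where the fit of all libraries gave 3 for each, and the share of all genes past 0.05 was 5.44% against 16.3%. Between the library sets, leaving out 1 library moved the count from 3 to between 0 and 5. The sign turned for Arntl in the Rps3a3-low libraries alone (0.082). For Clock it turned with the replicate block (0.040), the library set as a term (0.089), the Rps3a3-low libraries alone (0.15), library set and sex as terms (0.10) and the GC and length trends removed (0.036), and leaving out 1 library gave Clock values from -0.069 to 0.051, above 0 without control replicates 4 or 5 or cKO replicate 2. The cause was not tested.

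The labels number the replicates in both groups. Same-numbered libraries deviated from their group means together with correlations of 0.03, 0.02, 0.18 and 0.27, and 1 of 8 libraries correlated best with its own number, so the numbers were not taken as pairs. With the replicate number as a block 1 of the 10 genes was called, as without it, but the 4 genes past 0.05 were Hlf, Dbp, Per2 and Per3 in place of Hlf, Nfil3, Per2 and Nr1d2, and 2 of the other core clock genes and 2 of the output genes passed 0.05. With this block 11.3% of all genes passed 0.05 and 5.80% were called. Each of the 10 genes had at least 355 counts in every library, and counting error and spread between animals were not separated.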
